A study of Mus musculus with 6 samples.

Results

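The miR-30 family of microRNAs (miRNAs) was followed in mature sperm from the cauda epididymis, where sperm are stored, of 8-week-old C57BL/6 male mice. Its members were taken by name from the miRNA count table: every feature of mmu-miR-30a, mmu-miR-30b, mmu-miR-30c, mmu-miR-30d and mmu-miR-30e, whichever arm or gene copy it came from. That gave 11 of the 778 features, 5 from the 5p arm and 6 from the 3p arm, of which 9 had enough reads to be tested. The samples were 3 from normal mice and 3 from mice labelled as depressed through stress, here called normal and stress samples. The kind of stress, and whether a sample is 1 mouse or a pool, is not given in the sources used here, so p-values here rest on how far the 3 samples of a group lie apart, which may reflect technical variation alone. The samples held 1010203 to 3067208 miRNA reads, and values below are listed in replicate order.

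A miRNA gene is transcribed as a longer RNA that folds into a hairpin, from which a short duplex is cut. Usually 1 strand of the duplex, from the 5p or the 3p arm, is kept in an Argonaute protein and guides it to messenger RNAs through the seed, bases 2 to 8 of the miRNA, while the other strand is mostly lost. The miR-30 genes lie in pairs at separate loci and are widely expressed, in epithelia among other tissues; miR-30a and miR-30c also appear among the sperm miRNAs that other studies reported after paternal stress in mice.

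The sequences show what the members share. Names of 7 of the 11 features matched RefSeq mature sequences (GRCm38.p6), and all 7 were identical to the deposited ones; the features of miR-30b and miR-30d are named only. They are written 5′ to 3′ with the seed in capitals, the 5p strands first:
miR-30a-5p: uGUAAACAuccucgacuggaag
miR-30c-5p: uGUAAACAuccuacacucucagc
miR-30e-5p: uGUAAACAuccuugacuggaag
miR-30a-3p: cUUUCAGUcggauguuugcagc
miR-30e-3p: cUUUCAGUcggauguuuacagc
miR-30c-1-3p: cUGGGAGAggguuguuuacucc
miR-30c-2-3p: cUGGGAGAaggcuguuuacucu
All 5 of the 5p strands carried the seed GUAAACA, which no other feature of the table had. The 3p strands divided into the seed UUUCAGU, in miR-30a, miR-30d and miR-30e, UGGGAGA, in both copies of miR-30c, which miR-6958-5p also has, and UGGGAUG, in miR-30b.

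Some members are hard to tell apart by sequence. miR-30a-5p differed from miR-30d-5p and from miR-30e-5p by 1 base each, and miR-30a-3p from miR-30e-3p by 1 base. Of the 66 values of the family, 28 (42.4%) lay more than 0.001 from a whole number, as when a counting method divides a read among features it matches, against 12.3% of all miRNA values above 0. The fractions fell on 10 of the 11 features, all but miR-30b-3p. They were not limited to near copies, since miR-30b-5p, 4 to 8 bases from the other 5p strands, had 1 fractional value. The levels of the near copies are uncertain to a degree that was not tested.

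Mir30a lies on chromosome 1 (23272269 to 23272339, plus strand) outside any other annotated gene, 19.4 kb from Mir30c-2 (23291701 to 23291784, plus strand), which lies in an exon of the noncoding Gm27028. Mir30c-1 (chromosome 4, 120769534 to 120769622) and Mir30e (120772606 to 120772697) lie 3.1 kb apart on the minus strand in an intron of Nfyc, the gene for a subunit of the transcription factor NF-Y. Mir30b and Mir30d are neighbours as well, with 0 genes starting between them. miR-30c-5p has the same sequence in Mir30c-1 and Mir30c-2, so its reads cannot be assigned to a locus.

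The 5p strand of miR-30d was by far the most abundant member. Levels are given as CPM, the reads of a feature scaled to 1000000 miRNA reads, after TMM scaling, a correction for the make-up of each library. All mature strands are 22 bases long apart from miR-30c-5p, with 23. Over the 6 samples miR-30d-5p lay between 10081 and 12266 CPM, 11th among the 236 tested miRNAs. Next came miR-30a-5p at 1799 to 4389 CPM and miR-30c-5p at 1762 to 2964 CPM, whose ranges overlapped, although miR-30a-5p was the higher of the pair in 5 of 6 samples. The most abundant 3p strand was miR-30a-3p (523.5 to 1252 CPM), above miR-30e-3p (229.5 to 462.9 CPM) and miR-30c-2-3p (145.8 to 268.3 CPM). miR-30b-5p (52.6 to 155.4 CPM) and miR-30e-5p (86.8 to 136.4 CPM) overlapped widely and were far below the other 5p strands. miR-30b-3p lay between 11.1 and 44.7 CPM. miR-30d-3p and miR-30c-1-3p, with 4 to 13 and 0.5 to 12 reads per sample, were too scarce to test. Partners of 1 locus thus stood far apart: miR-30b-5p had 0.0052 to 0.0147 reads for each read of miR-30d-5p.

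**Figure D1:**
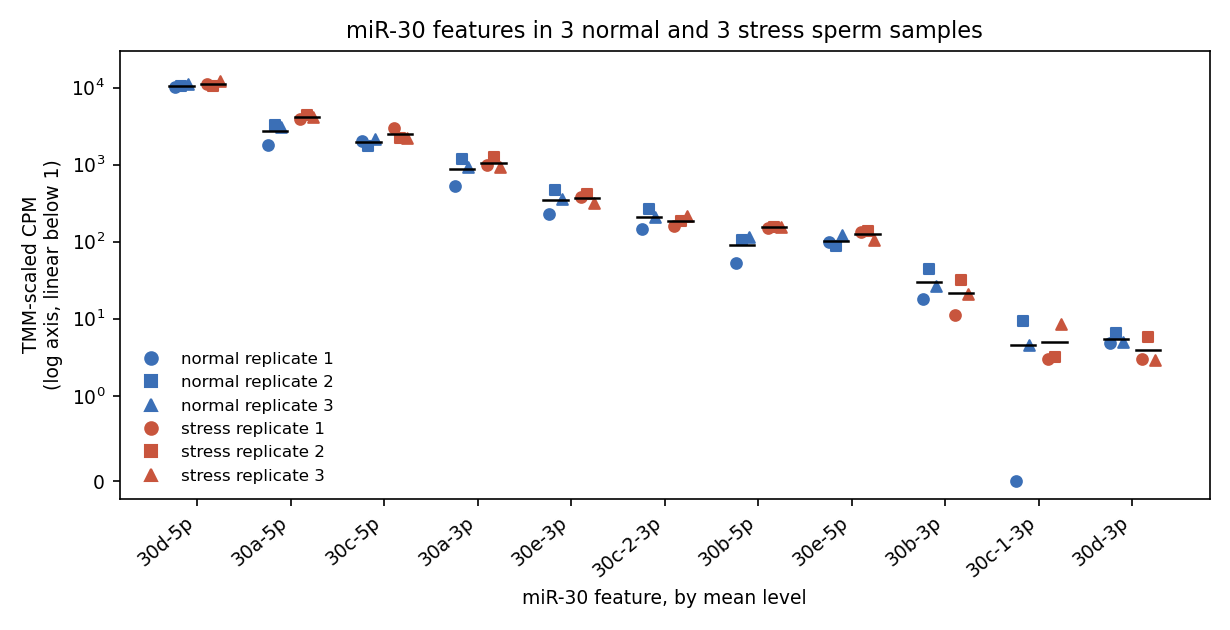
TMM-scaled CPM of the 11 miR-30 features (vertical log axis, linear below 1) in 3 normal and 3 stress samples, ordered by mean level; points are samples and black bars group means. miR-30d-5p leads at 10081 to 12266 CPM, and the 0 for miR-30c-1-3p in normal replicate 1 is 0.5 of a read rounded down.

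Among the 5p strands, miR-30a and miR-30b had the largest differences between stress and normal sperm, but no member passed the test. miR-30a-5p stood at 1799, 3235 and 3061 CPM in normal sperm and at 3882, 4389 and 4131 CPM in stress sperm. Every stress sample was above every normal sample, and normal replicate 1 was the lowest by a wide margin. The means were 2698 ± 784 CPM (SD, n = 3) and 4134 ± 254 CPM, and the log2 fold change was 0.62 ± 0.27 (SE; edgeR, adjusted p = 0.14).

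miR-30b-5p was at 52.6, 105.2 and 115.3 CPM in normal sperm and at 148.4, 155.4 and 155.3 CPM in stress sperm. Its groups did not overlap either, and the stress samples lay close together. Its log2 fold change was 0.74 ± 0.32 (SE; edgeR, adjusted p = 0.13). Without normal replicate 1, again the lowest sample, the log2 fold changes were 0.38 for miR-30a-5p and 0.46 for miR-30b-5p.

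miR-30c-5p was at 2007, 1762 and 2156 CPM in normal and at 2964, 2182 and 2234 CPM in stress samples, which did not overlap by a thin margin (0.32 ± 0.24, edgeR adjusted p = 0.37). miR-30d-5p, at 10081, 10598 and 10988 CPM in normal and 10955, 10555 and 12266 CPM in stress samples, overlapped (0.09 ± 0.19, edgeR adjusted p = 0.77). So did miR-30e-5p, at 98.0, 86.8 and 123.3 CPM against 133.5, 136.4 and 105.7 CPM (0.28 ± 0.27, edgeR adjusted p = 0.51). All 5 of the 5p strands had positive fold changes, the smallest of them in the most abundant member and within its SE of 0. The median log2 fold change over all 236 tested miRNAs was 0.00063.

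The 3p strands, usually the discarded partners, had fold changes on both sides of 0. miR-30a-3p was at 0.26 ± 0.32, miR-30e-3p at 0.08 ± 0.31, miR-30c-2-3p at −0.15 ± 0.30 and miR-30b-3p at −0.44 ± 0.46 on the log2 scale, with edgeR adjusted p-values between 0.53 and 0.86. All 4 overlapped between the groups. The lowest normal value of both miR-30a-3p (523.5 CPM) and miR-30e-3p (229.5 CPM) was again normal replicate 1, and without it their log2 fold changes were −0.030 and −0.17. The untested miR-30d-3p had 4, 5 and 13 reads in normal and 4.5, 11 and 4 reads in stress samples. miR-30c-1-3p had 0.5, 7 and 11.5 against 4.5, 6 and 12 reads.

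In all, edgeR called 0 of the tested members at its threshold of 0.05 on the adjusted value, against 12.7% of all tested miRNAs. Before adjustment, miR-30a-5p and miR-30b-5p, 2 of the 9, lay below 0.05, as did 32.2% of all tested miRNAs, a larger share. DESeq2 called 0 members as well, and 19.9% of all miRNAs. The median log2 fold change was 0.26 over the 9 members and 0.00063 over all 236 miRNAs tested. Every stress sample exceeded every normal sample for 3 of the 9 members, against 18.6% of all tested miRNAs.

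As a share of the miRNA reads, a quantity without TMM scaling, the family was higher in stress sperm. Its 11 features took 1.16%, 1.21% and 1.55% of the reads in normal sperm and 2.53%, 2.40% and 2.81% in stress sperm. The groups were well apart, at 1.30% ± 0.21 (SD, n = 3) and 2.58% ± 0.21, a 1.98-fold difference. miR-30d-5p made up the most of it, with 0.816% ± 0.115 and 1.47% ± 0.20. The share of miR-30a-5p was 2.59-fold higher in stress samples and that of miR-30b-5p 2.83-fold.

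Many other miRNAs differed the same way on this scale. Of the 9 tested members 8 had a higher share in every stress than in every normal sample, all but miR-30b-3p, while 56.8% of all tested miRNAs did so. The let-7 features and miR-148a-3p together held 72.9% to 74.6% of the reads in normal and 59.7% to 62.0% in stress samples. The let-7 features alone took 23.99% to 40.98% in normal, the highest in normal replicate 1, and 18.67% to 23.68% in stress samples. The share of miR-148a-3p alone overlapped between the groups, at 43.4% ± 8.65 in normal and 40.4% ± 2.08 in stress samples. The share of miR-10b-5p, another abundant miRNA, was 5.74% ± 0.19 in normal and 8.60% ± 0.59 in stress samples, and that of let-7c-5p 14.3% ± 5.06 and 6.68% ± 0.96. Of the reads outside let-7 and miR-148a-3p, the miR-30 family took 4.54%, 4.66% and 5.71% in normal sperm and 6.65%, 6.17% and 6.96% in stress sperm. The groups still did not overlap, but the difference was 1.33-fold. The 3p features alone overlapped on this scale, at 0.280% to 0.517% in normal and 0.509% to 0.603% in stress samples. How many of all tested miRNAs did not overlap on this scale was not counted.

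Marker miRNAs of 3 other cell types, each list summed, had higher shares in stress samples as well. Those of epithelium took 1.30% to 1.82% of the reads in normal and 3.01% to 3.32% in stress samples, those of smooth muscle, stroma and endothelium 0.268% to 0.496% and 0.934% to 1.09%, and those of leukocytes 0.0360% to 0.0814% and 0.135% to 0.189%. The germ cell markers overlapped, at 0.677% to 0.883% and 0.711% to 0.865%, and so did those of red blood cells, striated muscle and neurons. Their part in the miR-30 share was not tested.

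The call depended on the scaling. With the total of the miRNA table as library size, edgeR called 7 of the 9 members higher (miR-30a-5p at 1.37, miR-30d-5p at 0.85, adjusted p = 0.0087 and 0.011), against 40.7% of all tested miRNAs, and the median of all miRNAs moved from 0.00063 to 0.76. Against that median, miR-30d-5p (0.85) lay close, and miR-30a-5p (1.37) and miR-30b-5p (1.48) lay above. With the estimated total of the miRNA, piRNA and tsRNA tables, 0 of 9 members were called, but so were few others (2.38% of the tested miRNAs), and miR-30a-5p was at 0.83 ± 0.62 (SE; edgeR adjusted p = 0.78). This total is uncertain, because the tsRNA depth was inferred from value steps at which 25 to 32 of 75 to 93 low values per sample came out as whole reads. The TMM factors themselves separated the groups, at 0.683 to 0.860 in normal and 1.24 to 1.38 in stress samples.

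**Figure D2:**
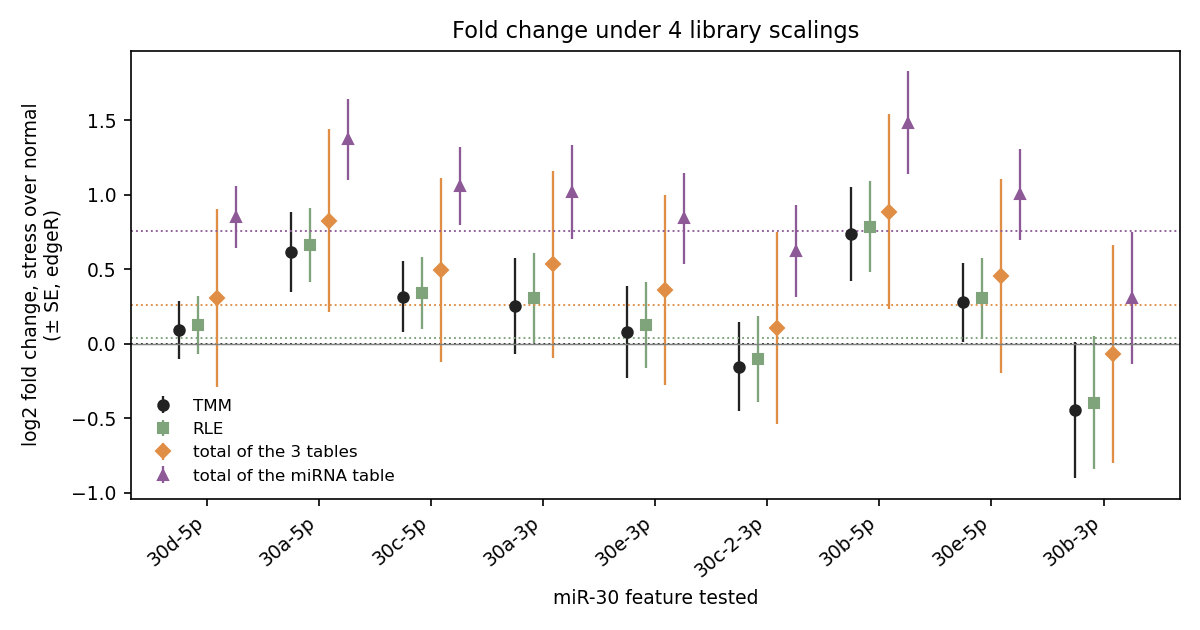
Log2 fold change, stress over normal, of the 9 tested miR-30 features under 4 library scalings (points, edgeR; bars, SE), with the median of all tested miRNAs under each scaling as a dotted line. Fold changes with the total of the miRNA table lie highest, as does their median of 0.76, and the 2 members at the top, miR-30b-5p and miR-30a-5p, are the same there as with TMM.

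The make-up of the family needs no library scaling, since it compares members within a sample. In the 5p reads of the family, miR-30d took a smaller share and miR-30a a larger share in stress than in normal samples. miR-30d-5p made up 71.8%, 67.1% and 66.8% of the 5p reads in normal sperm and 60.6%, 60.6% and 64.9% in stress sperm. miR-30a-5p made up 12.8%, 20.5% and 18.6% in normal and 21.5%, 25.2% and 21.9% in stress samples. Neither strand overlapped between the groups, though for miR-30a-5p normal replicate 2 and stress replicate 1 were close. Such a lack of overlap was found for 43.4% of the 83 miRNAs whose share within a seed family could be compared. Together miR-30d-5p and miR-30a-5p made up 82% to 88% of the 5p reads of a sample, so their shares are not independent of each other. The reads of miR-30a-5p for each read of miR-30d-5p averaged 0.254 ± 0.067 (SD, n = 3) in normal and 0.369 ± 0.041 in stress samples. Because these strands differ by 1 base, a different division of shared reads could move this ratio, which was not tested.

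miR-30b-5p, a minor member, made up 0.58% ± 0.18 of the 5p reads in normal and 0.85% ± 0.04 in stress sperm, and its groups did not overlap. miR-30c-5p (11.2% to 14.3% in normal, 11.8% to 16.4% in stress samples) and miR-30e-5p (0.55% to 0.75% and 0.56% to 0.78%) overlapped. Shares within a seed family could be compared for 7 tested members. The groups did not overlap for 3 of these, miR-30a-5p, miR-30b-5p and miR-30d-5p. Among all 83 miRNAs that share a seed with another tested miRNA it was 43.4%, so the family held no larger share than these.

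**Figure D3:**
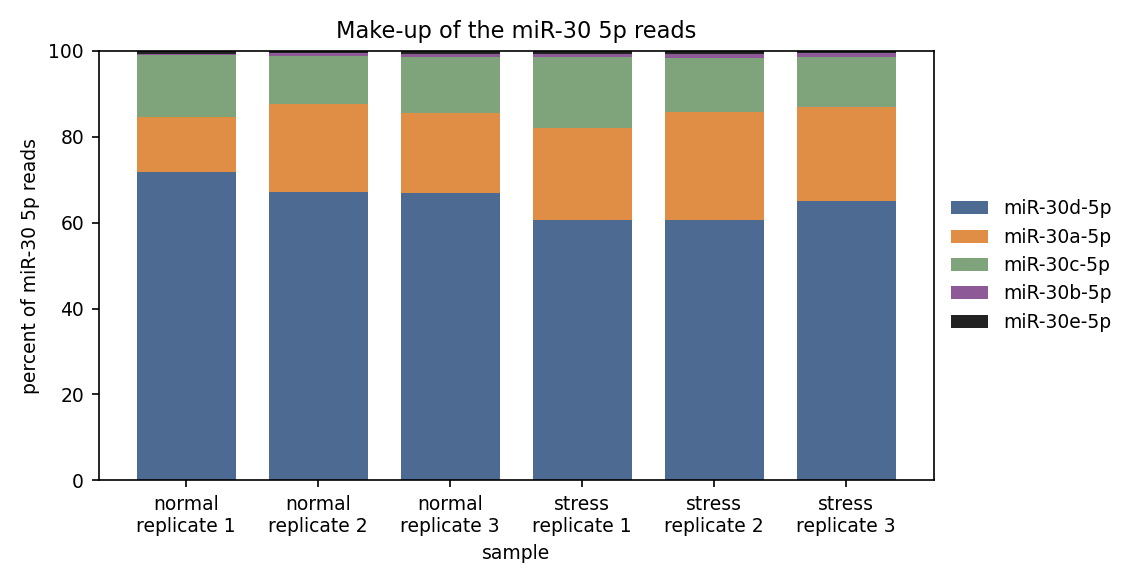
Percent of the miR-30 5p reads that each of the 5 members took in each sample. miR-30d-5p lies at 66.8% to 71.8% in the normal and at 60.6% to 64.9% in the stress samples, and miR-30a-5p lies at 21.5% to 25.2% in the stress samples.

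The hairpins of the family differed widely in the arm they were read from. Both arms are capitalised in the hairpins of Mir30a and Mir30e, which have nearly the same mature strands and opposite arm preferences:
Mir30a: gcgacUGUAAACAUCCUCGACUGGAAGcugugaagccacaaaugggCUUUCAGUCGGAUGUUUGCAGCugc
Mir30e: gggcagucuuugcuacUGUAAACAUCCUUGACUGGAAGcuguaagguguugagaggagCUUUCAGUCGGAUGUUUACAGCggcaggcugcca
In deposited reads, miR-30a had 2.74 to 4.47 of the 5p strand for each of the 3p strand, whereas miR-30e had 0.189 to 0.431. The 3p strand held 69.9% to 84.1% of the miR-30e reads, more than the 5p strand in all 6 samples. Such a lead of the 3p strand in every sample was found for 16 of the 45 arm pairs tested. Each arm of miR-30e differs by 1 base from that of miR-30a, so this ratio shares the doubt about divided reads.

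At the other end, miR-30d had 1612 to 4264 reads of the 5p strand for each of the 3p strand, so its 3p strand made up 0.0234% to 0.0620% of its reads. For miR-30c the 5p strand is common to both genes: it was 6.57 to 18.8 times as frequent as miR-30c-2-3p and 191.4 to 3358 times as frequent as miR-30c-1-3p. Of the 3p reads of the 2 genes, nearly all were those of Mir30c-2. The ratios of miR-30d and miR-30c-1 rest on few 3p reads.

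For miR-30b, the arm ratio was 2.93, 2.35 and 4.28 in normal and 13.3, 4.83 and 7.45 in stress samples. The groups did not overlap, and the ratio lay further towards the 5p strand in stress sperm. The log2 ratio, with 0.5 added to each arm, changed by 1.33 ± 0.51 (SE; limma, adjusted p = 0.040 over 45 arm pairs). miR-30b was the only member called, 1 of 4 tested, against 31.1% of all arm pairs, so the family held no larger share of calls than the rest. It rests on 15, 34 and 71 reads of the 3p strand in normal and 15, 61 and 29 in stress samples.

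The miR-30b call was lost under several alternatives. In limma it was lost without normal replicate 2 (1.14, adjusted p = 0.17), where 5 of 52 arm pairs were called in all. Without stress replicate 1 the change was 0.96 (limma adjusted p = 0.22; 10 of 49 pairs called), and without stress replicate 3 it was 1.36 (limma adjusted p = 0.16; 0 of 46 pairs called). The same change of 1.33 also missed the threshold with no variance trend (limma adjusted p = 0.086), with the replicate number as a block (limma adjusted p = 0.080) and with no filter on low counts (limma adjusted p = 0.23).

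The ratio of miR-30a was 3.43, 2.74 and 3.26 in normal sperm and 3.98, 3.51 and 4.47 in stress sperm. These did not overlap, but the log2 change of 0.34 ± 0.23 did not pass (limma adjusted p = 0.25). miR-30c-2 (0.43 ± 0.33, limma adjusted p = 0.30) and miR-30e (0.16 ± 0.35, limma adjusted p = 0.77) overlapped between the groups. Groups without overlap were thus seen in 2 of 4 members and in 53.3% of all arm pairs. All reads of the 3p arm together made up 6.17% to 11.1% of the family in normal and 7.32% to 9.78% in stress samples.

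**Figure D4:**
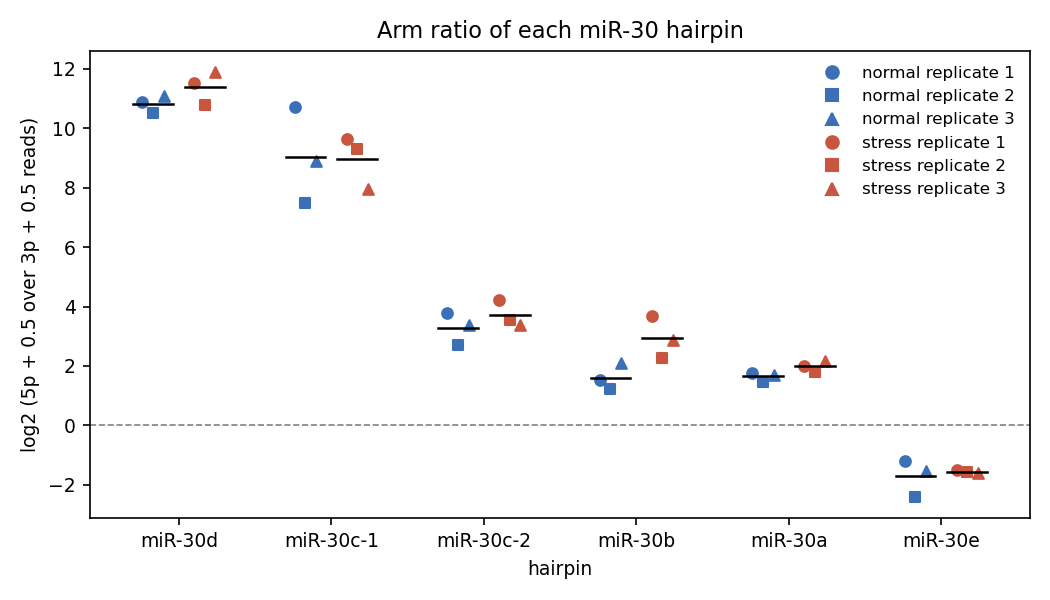
Log2 ratio of 5p to 3p reads, with 0.5 added to each, for the 6 miR-30 hairpins in 3 normal and 3 stress samples; points are samples, black bars group means and the dashed line equal arms. miR-30e alone lies below the line, and the stress samples of miR-30b lie above its normal samples.

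The miRNAs outside the family whose level was most like the summed 5p strands over the 6 samples were miR-103-3p, miR-221-3p, miR-181b-5p, miR-199b-5p and miR-10b-3p (Pearson r of log2 CPM between 0.96 and 0.97). These points share their libraries and TMM factors, and the correlation is a description. The summed level of the 5p strands was 14037, 15788 and 16444 CPM in normal and 18083, 17417 and 18892 CPM in stress samples. miR-103-3p averaged 260.0 ± 52.4 CPM in normal and 474.1 ± 25.7 CPM in stress samples (SD, n = 3; log2 fold change 0.87, edgeR adjusted p = 0.051), and none of these 5 miRNAs passed the threshold.

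Marker miRNAs of germ cells, all 15 names with reads, and of other cell types were read beside the family. In bulk samples, fewer cells of a type and less RNA per cell cannot be told apart. The calls below stand beside 6 higher and 24 lower of all 236 tested miRNAs, 12.7% in either direction (edgeR with TMM). The 18 tested miRNAs of male germ cells, among them miR-34c and the X-linked testis miRNAs, summed to 7851 to 12903 CPM in normal and 5150 to 6930 CPM in stress samples, and 3 of them fell and 0 rose (edgeR with TMM). The most abundant of them, miR-881-3p, averaged 4927 CPM in normal and 2624 CPM in stress samples and was not called (edgeR adjusted p = 0.051). As a share of miRNA reads, given above, the germ cell markers overlapped. The 11 tested epithelial markers, such as the miR-200 family, summed to 18977 to 22458 and 22647 to 25725 CPM, with 0 called and a median log2 fold change of 0.44. Summed levels of the 5 leukocyte markers (517.5 to 932.3 and 1046 to 1359 CPM, 0 called) and of the 8 markers of smooth muscle, stroma and endothelium (3461 to 6738 and 7230 to 7982 CPM, 2 higher) did not overlap either. Those of the 3 red blood cell markers did (394.9 to 1308 and 191.3 to 630.5 CPM, 0 called), as did those of 2 striated muscle markers (136.6 to 812.8 and 271.1 to 3550 CPM, 0 called; miR-208a at 0 or not listed) and of 3 neuronal markers (1110 to 1922 and 967.9 to 1168 CPM, 1 lower). Members of a list did not all move alike. The germ cell markers had a median log2 fold change of −0.24. Among them miR-871-3p and miR-743b-5p, both called lower, were at −1.40 and −1.34. In the same list miR-34c-5p, miR-34c-3p and miR-883a-3p, none of them called, were at 0.13, 0.90 and 1.14. Of the leukocyte markers, miR-146a-5p, miR-150-5p and miR-223-3p had log2 fold changes of 0.87, 1.27 and 2.09. Those of miR-223-5p and miR-142a-3p were −0.69 and −0.76. In the epithelial list, with its median of 0.44, miR-200a-5p, miR-200b-5p and miR-192-5p were at −0.60, −0.31 and −0.12. The part of other cells in the miR-30 values was not tested. Of 7 tested features of the miRNAs reported elsewhere after paternal stress, 0 were called by edgeR; 4 of them belong to miR-30a and miR-30c and are described above.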

How the data were processed

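Small RNA of 6 sperm samples was sequenced, with libraries from the Illumina TruSeq RNA Sample Prep Kit per the labels' protocols. The authors used Bowtie, per the submitters' processing notes; which genome build and counting rule they chose is not given in the sources used here. Values in the deposited miRNA table are expected counts (1010203 to 3067208 per sample). The deposited piRNA and tsRNA values are RPM, each table scaled by the authors to 1000000 over itself, and served only to estimate a joint library size from their value steps.

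After rounding to whole numbers, edgeR 4.0.16 under R 4.3.3 was run on the counts (filterByExpr, minimum count 10; TMM; quasi-likelihood), adjusting by Benjamini-Hochberg over 236 miRNAs. Arm ratios, log2((5p + 0.5)/(3p + 0.5)), were tested with limma 3.58.1 over 45 arm pairs with both arms kept. Their variances were moderated across the pairs, with a trend on the log2 mean count of the weaker arm. SEs in edgeR are the log2 fold change over the root of F. Shares use deposited counts. Tests are two-sided, with a threshold of 0.05. DESeq2 1.42.0 was an alternative. Both fits were tested on simulated data. Members and lists were chosen with earlier results of these data known. Every member is named, as are the 5 miRNAs most alike in level.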

Additional observations from a re-analysis of the deposited data

How the results depend on the processing

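With RLE scaling, the estimated total of the 3 tables, DESeq2, no filter on low counts, a minimum count of 50, or any sample left out, 0 miR-30 features were called, as with TMM; with the miRNA total 7 were. The miRNA total also turned miR-30b-3p to 0.31 and miR-30c-2-3p to 0.62, and the total of the 3 tables turned miR-30c-2-3p to 0.11 (log2). Leaving out 1 sample, miR-30a-3p ranged from −0.030 to 0.54, miR-30c-2-3p from −0.37 to 0.087, miR-30e-3p from −0.17 to 0.35 and the miR-30e arm ratio from −0.18 to 0.41. Called miR-30 arm ratios numbered 0 with no variance trend (7 of all 45 pairs called), no filter on low counts (0 of 205) or a minimum count of 50, which drops miR-30b (4 of 11), 1 with a pseudocount of 5 (16 of 45), and 0 to 1 with a sample left out (0 to 21 of all pairs); without the trend or the filter the miR-30b change was 1.33, as before. The log2 fold of the family's share, 0.98, was 0.78 without let-7 reads and 0.41 without let-7 and miR-148a-3p reads. The miR-30d-5p share of the 5p reads differed by −6.55 percentage points, and by −8.00 to −4.94 with a sample left out. Apart from the miR-30b filter effect, the cause of these shifts was not tested. With the replicate number as a replicate block, 0 members were called, against 7 higher and 21 lower of all 236 miRNAs. Called arm ratios of the family also numbered 0, against 12 of all 45 pairs (miR-30b at 1.33, limma adjusted p = 0.080). Same-numbered samples deviated together at r = 0.11, −0.21 and 0.12, and samples of unlike number at −0.32 to 0.24. These 3 samples per group are too few to decide whether the numbers pair them.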
